A study of Mus musculus with 6 samples.

Results

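The clustered protocadherin genes and the Ugt1a genes are families in which many first exons stand in a row on one chromosome and, in most clusters, are joined to the same downstream exons. Members were all gene rows of the deposited table whose symbol belongs to Pcdha, Pcdhb, Pcdhg or Ugt1a, which gave 67 rows with 66 symbols out of 55421 rows with 55304 symbols. They were 14 Pcdha rows with 13 symbols, 22 Pcdhb genes, 22 Pcdhg genes and 9 Ugt1a genes. Pcdha11 was named in 2 Pcdha rows that held identical values, and it was counted once in tests. The rule used gene names only and no measured value.

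The RNA came from microglia, the resident macrophages of the brain, which were sorted by flow cytometry on CD45 and CD11B after myelin had been removed on a Percoll gradient. The 3 libraries labelled KO carry the genotype QKIflfl; Cx3cr1cre-ert2, in which a Cre recombinase that is switched on by tamoxifen is driven from the Cx3cr1 locus of microglia and related macrophages. The 3 libraries labelled WT carry the genotype QKIfl/fl, so they have the floxed Qk alleles too, and their label names no Cre. All 6 are from C57BL/6 mice of 4 to 5 weeks, and the sources used here name no inducing treatment. The labels do not say whether each library is a different mouse, and the p-values therefore rest on the spread among these libraries, which may be technical. Values are normalised reads, which are reads per gene that the authors scaled so that every library has nearly the same total. In the deposited table the libraries of each group have the letters A, B and C.

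In the Pcdha and Pcdhg clusters each variable exon has its own promoter and encodes the extracellular cadherin repeats, the membrane span and the start of the cytoplasmic tail, and splicing joins it to a common set of constant exons. Pcdhb genes lie between these clusters and consist of the variable exon alone. The proteins bind like to like at the cell surface and are best known in neurons, where each cell uses a different combination of them and so recognises its own branches. Ugt1a genes encode UDP-glucuronosyltransferases, enzymes that attach glucuronic acid to bilirubin, hormones and drugs. Their variable first exon encodes the substrate-binding part, and the shared exons encode the part that binds the sugar donor and the membrane anchor.

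The junction between first exon and shared exons shows where the first exon of each Ugt1a row meets the sequence common to all 9. Each line gives the last 24 bases of a first exon in lower case, 5′ to 3′, followed in capitals by the first 16 bases of the shared exons, as spliced in the GENCODE M21 transcripts of GRCm38. The genes lie on the plus strand of chromosome 1, from 88055411, where Ugt1a10 starts, to 88220002, where Ugt1a7c ends.
Ugt1a10: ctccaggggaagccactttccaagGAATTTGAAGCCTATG
Ugt1a9: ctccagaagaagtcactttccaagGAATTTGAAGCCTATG
Ugt1a8: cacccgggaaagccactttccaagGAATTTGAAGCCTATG
Ugt1a7c: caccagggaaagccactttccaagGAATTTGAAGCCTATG
Ugt1a6b: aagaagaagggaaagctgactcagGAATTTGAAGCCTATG
Ugt1a6a: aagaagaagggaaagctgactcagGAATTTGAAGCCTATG
Ugt1a5: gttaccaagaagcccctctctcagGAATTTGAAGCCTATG
Ugt1a2: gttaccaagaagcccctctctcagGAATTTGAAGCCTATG
Ugt1a1: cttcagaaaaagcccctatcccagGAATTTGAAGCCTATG

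The 9 transcripts have 1 shared start and 7 distinct first-exon ends over these bases, since Ugt1a6b and Ugt1a6a are alike there, as are Ugt1a5 and Ugt1a2. From the junction on, 1311 bases are common to all 9 genes, against 879 to 986 bases of first exon. A read inside the capitals and what follows them fits all 9 genes, and a read in the lower-case part fits 1 gene or a close pair. In the protocadherin clusters, the 14 Pcdha rows have 2860 bases in common and 2346 to 3028 bases of first exon, and the 22 Pcdhg genes have 2116 bases in common and 2499 to 2961 bases of first exon. The 22 Pcdhb genes have 1 exon each, of 2588 to 8695 bases, and no base common to all. First exons also repeat each other in part. The median share of windows of 50 bases that recurred in another member was 0.73% in Pcdhg, 4.26% in Pcdhb, 6.63% in Ugt1a and 14.7% in Pcdha. The highest shares were 17.9% in Pcdhg, for Pcdhgb2, and 42.7% in Ugt1a, for Ugt1a6a.

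The libraries labelled KO held 61977830 to 75013004 counted reads and those labelled WT held 56988261 to 77199936. Qk had 25951.08, 23858.83 and 24493.37 normalised reads in the libraries labelled KO, against 11180.28, 12556.11 and 11159.67 in those labelled WT. Its log2 difference was 1.09 (SE 0.08, adjusted p = 2.45e-06, limma), the opposite of what the labels state for the floxed gene. Reads of the whole gene enter this value and the sources used here do not give the deleted part, so it does not test the deletion. Every direction below is therefore that of the libraries as labelled. Microglial markers were abundant in all 6 libraries, and 7 of 10 were lower in the libraries labelled KO, beside 23.4% of all genes. After rescaling with trimmed-mean (TMM) factors 6 were lower and 1 higher, beside 15% and 15.4% of all genes. Cx3cr1 was among the lower markers, with a log2 difference of -2.08 (SE 0.10, adjusted p = 1.81e-07, limma). The Cre of the libraries labelled KO is driven from the Cx3cr1 locus, and the part of that allele in this difference was not tested.

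Members of Pcdhg and of Ugt1a moved together within their cluster, and all downwards. Their values were lower in the libraries labelled KO in all 22 and all 9 genes, by 2.32 to 2.59 times and by 1.69 to 1.71 times. Pcdha was close to the detection limit in every library. In Pcdhb, Pcdhb22 alone was well detected, and its ranges overlapped between the groups. In the limma test on log2 values over all genes with a mean above 1, 23.4% of 22472 genes were lower and 11.3% were higher at an adjusted p under 0.05. Against that background, 22 of 22 tested Pcdhg genes, 9 of 9 Ugt1a genes, 13 of 13 Pcdha genes and 4 of 17 Pcdhb genes were lower, and 0 members of any cluster were higher, since the fitted difference was negative in all 61 tested members. The Pcdhb count is near the background and says nothing particular of that cluster. The 2 groups of libraries did not overlap in the same numbers of members, 22, 9, 13 and 4, and the libraries labelled KO lay wholly below those labelled WT in 32.2% of all tested genes. Because members with shared exons repeat the same reads, the 22 and the 9 are not 31 separate observations.

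**Figure D1:**
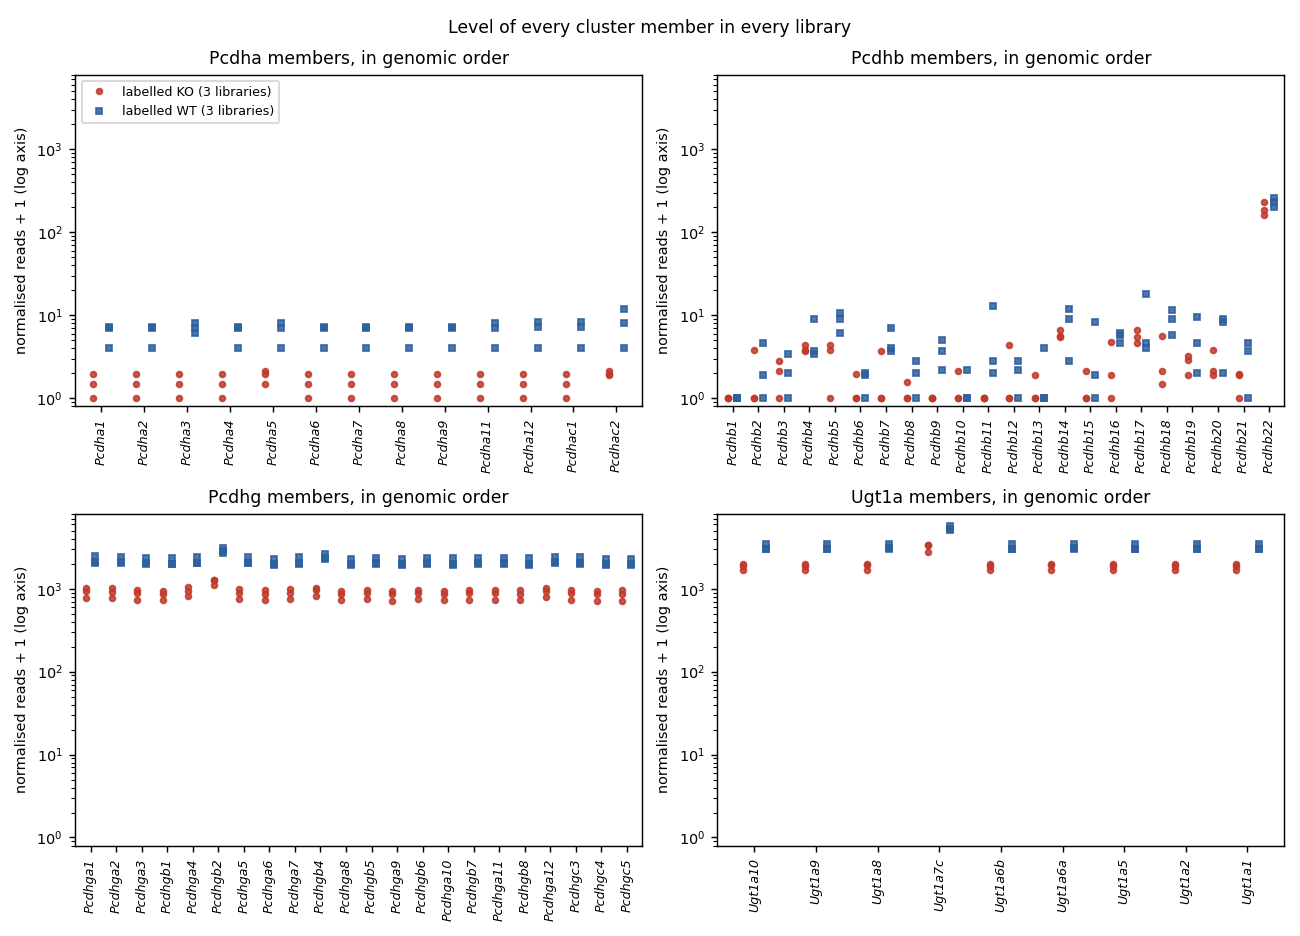
Normalised reads plus 1 of each cluster member on a log axis, by genomic order within the cluster, with red circles for the 3 libraries labelled KO and blue squares for the 3 labelled WT. The members of Pcdhg and of Ugt1a run in nearly level rows with KO below WT, Pcdha rows are level near 0, and Pcdhb is uneven, with Pcdhb22 (160.22 to 229.03 in KO and 199.40 to 258.31 in WT) far above the other 21.

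Log2 differences are KO minus WT on the scale log2(normalised reads + 1). Their cluster medians were -1.30 for Pcdhg, -0.77 for Ugt1a, -2.06 for Pcdha and -0.76 for Pcdhb, beside -0.15 for all tested genes. With Pcdhb9 and Pcdhb11, which were at 0 in every library labelled KO, set to the 3 reads that a count of 0 allows, the Pcdhb median was -0.73. Rescaling with trimmed-mean (TMM) factors moved the median of all genes to -0.02, that of Pcdhg to -1.16 and that of Ugt1a to -0.63, and 22 Pcdhg and 9 Ugt1a genes were again lower, where 15% of all genes were lower and 15.4% higher. In the authors' deposited table, 22 Pcdhg genes with log2 fold changes of -1.24 to -1.07 and 9 Ugt1a genes with -0.63 to -0.61 have an adjusted p under 0.05, against 0 of 14 Pcdha rows and 0 of 22 Pcdhb genes. None of the 67 rows is in the authors' deposited list of 503 changed genes.

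**Figure D2:**
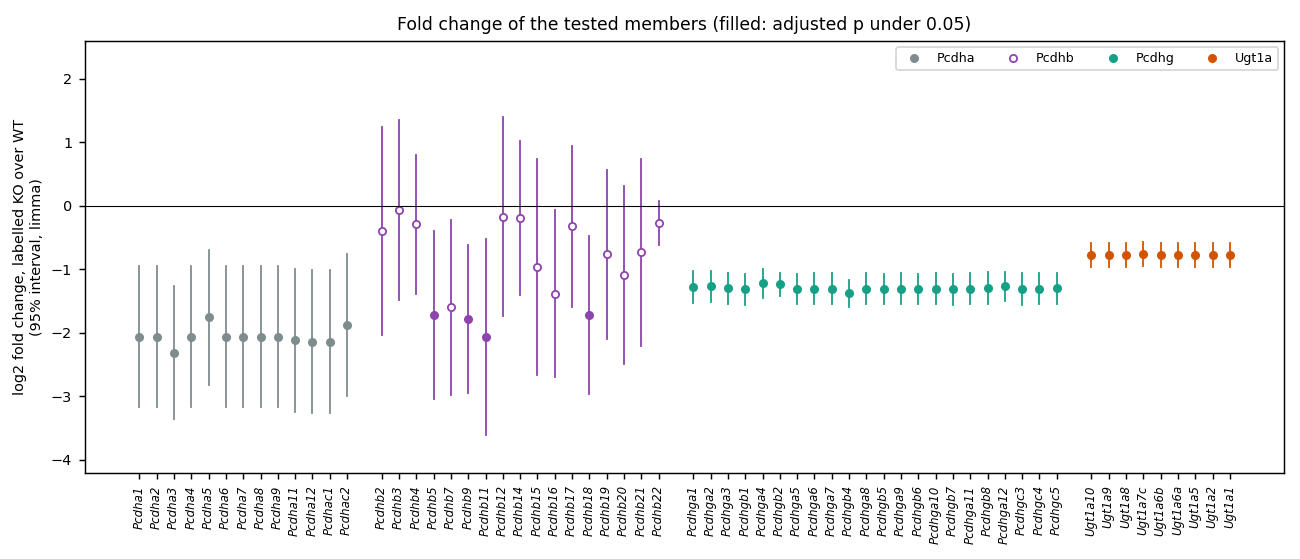
Log2 difference, KO minus WT, of each tested member with its 95% interval from limma on log2(normalised reads + 1), grouped by cluster and with filled points for an adjusted p under 0.05. Pcdhg lies between -1.38 and -1.22 and Ugt1a between -0.77 and -0.76 with narrow intervals, while Pcdhb spreads from -2.06 to -0.07 and 13 of its 17 intervals belong to genes that did not pass.

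The Pcdhg cluster lies on chromosome 18 of GRCm38, plus strand, between 37661793 and 37841873. Pcdhgb2 was the highest of its members, with 1123.61, 1265.68 and 1279.21 normalised reads in the libraries labelled KO, against 2841.92, 2712.31 and 3085.81 in those labelled WT. Its log2 difference was -1.24 (SE 0.08, adjusted p = 1.82e-06, limma). Pcdhgc4 was the lowest by its mean, with 717.31, 944.13 and 857.34 in the libraries labelled KO, against 1977.34, 1921.40 and 2296.57 in those labelled WT. In both genes every library labelled KO was below every library labelled WT. The change ranged over the 22 members from -1.38 for Pcdhgb4 to -1.22 for Pcdhga4, with adjusted p-values of 1.82e-06 to 1.17e-05 (limma).

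The near-equal values rest on a level that every Pcdhg member carries. In each library the lowest member held 96.7% to 97.7% of the median member in the libraries labelled KO and 96.8% to 97.0% in those labelled WT. This level, called the shared level here, was 715.48, 944.13 and 855.46 in the libraries labelled KO and 1976.3, 1921.4 and 2296.6 in those labelled WT. It averaged 838 ± 115 in the libraries labelled KO and 2065 ± 203 in those labelled WT (SD, n = 3 each), which is 2.46 times lower. The values have the form that arises when a read in a shared exon is counted for every member, but the sources used here do not state the counting rule.

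What a member has beyond the shared level is the part that points to its own first exon. This own part, the member's value minus the lowest member of the library, is 0 for the lowest member by construction and is a low estimate wherever that member has reads of its own. Per kilobase of first exon it was highest in Pcdhgb2, with 151 ± 21.7 in the libraries labelled KO and 321 ± 17.2 in those labelled WT (SD, n = 3 each). Pcdhgb4 came next in the libraries labelled WT, with 36.6 ± 6.12 in those labelled KO and 138 ± 9.75 in those labelled WT. Pcdhga1 followed in the libraries labelled WT, with 57.2 ± 9.97, and had 29.3 ± 5.29 in KO, where Pcdhga4 had 37.3 ± 4.96. The other 19 genes averaged 45.1 or less per kilobase in either group.

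Summed over the 22 genes, the own parts were about as dense as the shared exons. The sum per kilobase came to 126%, 85.6% and 109% of the shared exons' density in the libraries labelled KO and to 96.5%, 102% and 88.6% in those labelled WT. The densities of the 22 first exons thus add up to about that of the constant exons, while each single first exon had less. The ranges of this ratio overlapped between the groups.

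**Figure D3:**
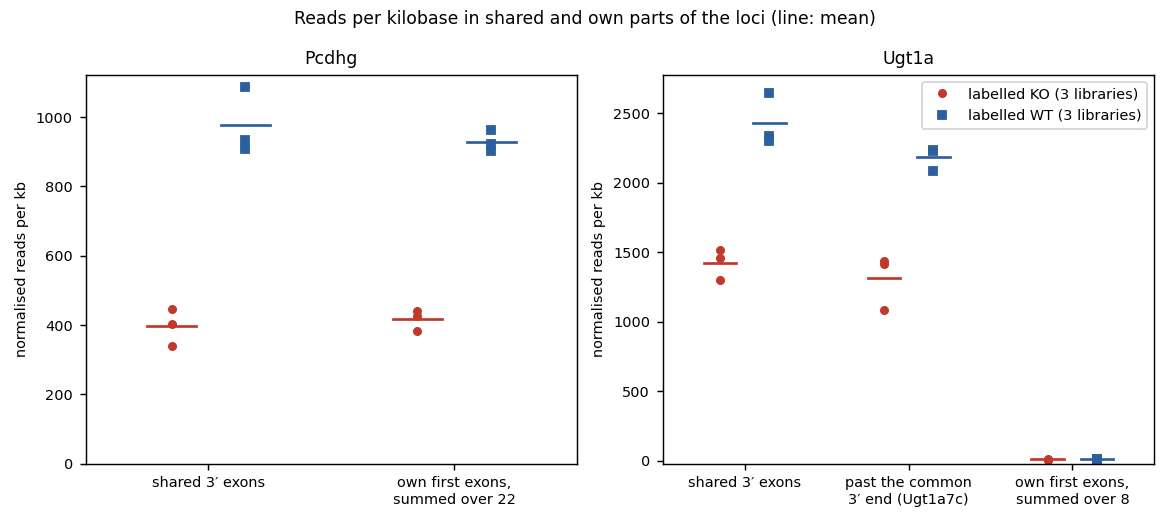
Normalised reads per kilobase in the shared exons and in the summed own parts of the 22 Pcdhg genes (left) and of 8 Ugt1a genes without Ugt1a7c (right, with the own part of Ugt1a7c placed past the common 3′ end), with red circles for libraries labelled KO, blue squares for those labelled WT and lines for means. In Pcdhg the shared exons lie at 338 to 446 in KO and 908 to 1085 in WT and the own parts at 382 to 442 in KO and 902 to 962 in WT, whereas the 8 Ugt1a own parts stay at 9.35 to 13.9 in KO and 9.91 to 14.4 in WT beside shared exons at 1297 to 1515 in KO and 2298 to 2645 in WT.

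Fitted in place of the member values, the own parts passed the test in 18 of 21 Pcdhg genes, all lower, where 23.3% of all genes were lower. Pcdhga9 is among the 18, with 0, 1.11 and 0 in the libraries labelled KO, against 3.54, 1.34 and 6.03 in those labelled WT. It was the lowest member in KO A and KO C, so its 0 there is by construction. It passed the filter on the mean only through the libraries labelled WT, so its call is not read as support. Pcdhgb2 had an own part of 408.13, 321.55 and 423.75 normalised reads in the libraries labelled KO, against 865.59, 790.91 and 789.24 in those labelled WT. Its log2 difference was -1.09 (SE 0.11, adjusted p = 4.8e-05, limma). Pcdhgb4 had 103.06, 75.4 and 101.72 in the libraries labelled KO, against 351, 378.77 and 329.2 in those labelled WT, a log2 difference of -1.92 (SE 0.15, adjusted p = 6.13e-06, limma). In both genes every library labelled KO was below every library labelled WT.

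Pcdhga4 was the well-covered exception. Its own part was 111.31, 94.8 and 85.78 normalised reads in the libraries labelled KO, against 86.1, 105.04 and 133.85 in those labelled WT, and the ranges overlapped. Its log2 difference was -0.14 (SE 0.20, adjusted p = 0.629, limma). Shares of the cluster's own parts are given as a description. Pcdhga4 held 9.06 ± 1.37% of the summed own parts in the libraries labelled KO and 4.50 ± 0.85% in those labelled WT, while Pcdhgb4 held 8.62 ± 0.90% in KO and 14.7 ± 1.36% in WT (SD, n = 3 each). The share of Pcdhgb2 was 35.5 ± 2.64% in the libraries labelled KO and 34.0 ± 2.82% in those labelled WT. The log2 ratio of the own part of Pcdhgb4 to that of Pcdhgb2 was -1.99, -2.09 and -2.06 in the libraries labelled KO and -1.30, -1.06 and -1.26 in those labelled WT, and the groups did not overlap. These 3 genes were singled out after their values were seen, so their differences from each other and from the other members are a description.

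**Figure D4:**
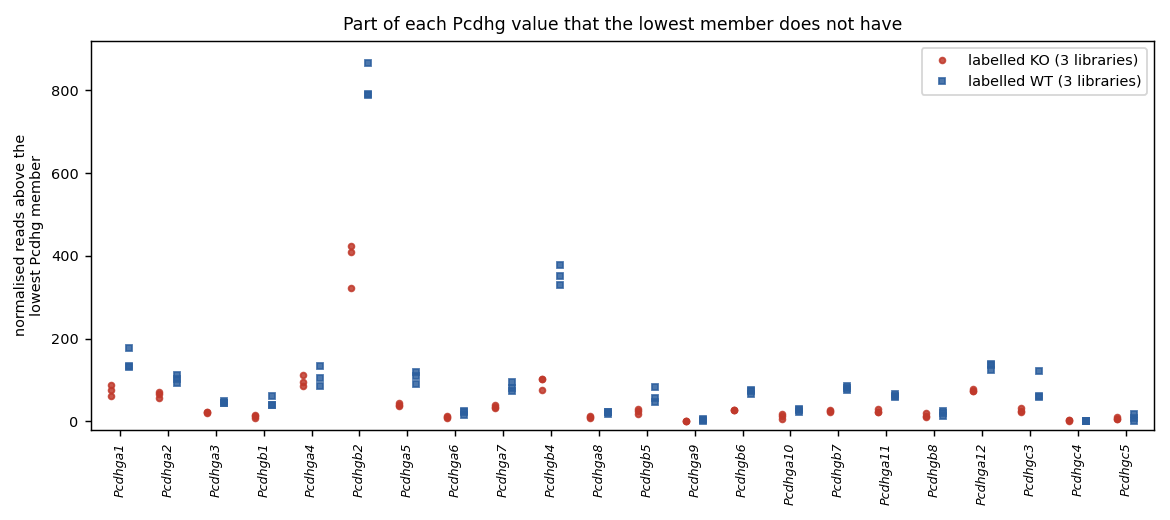
Own part of each Pcdhg member, in normalised reads above the lowest member of the same library, in genomic order, with red circles for libraries labelled KO and blue squares for those labelled WT. Pcdhgb2 (321.55 to 423.75 in KO and 789.24 to 865.59 in WT) stands above the rest in both groups. Pcdhgb4 (75.4 to 103.06 in KO and 329.2 to 378.77 in WT) comes next in WT only, and in KO it lies level with Pcdhga4 (85.78 to 111.31 in KO). The groups are separated in Pcdhgb2 and Pcdhgb4 and overlap in Pcdhga4.

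The remaining own parts were smaller than that of Pcdhgb2 and, in the libraries labelled WT, than that of Pcdhgb4. Pcdhga1, the first gene of the cluster, had 61.38, 75.95 and 88.59 in the libraries labelled KO, against 133.71, 130.86 and 176.66 in those labelled WT (log2 -0.96, SE 0.19, adjusted p = 0.0033, limma). Pcdhga12, the last of the A type, averaged 74.9 ± 3.45 in KO and 133 ± 8.21 in WT (SD, n = 3 each). Among the C type, whose members sit next to the constant exons, Pcdhgc3 had 24.74, 23.28 and 30.94 in KO, against 61.28, 59.64 and 121.19 in WT (log2 -1.51, SE 0.30, adjusted p = 0.0029, limma). The antisense gene BC037039 covers 1513 bases of Pcdhgc3 and had 12.37, 10.53 and 16.41 in KO and 36.47, 32.94 and 69.34 in WT. The sources used here do not state a strand setting for the counting, and reads of this pair cannot be told apart. Pcdhgc5 averaged 6.76 ± 3.28 in KO and 9.05 ± 9.36 in WT, Pcdhgc4 averaged 1.24 ± 1.07 in KO and 0.34 ± 0.58 in WT, and neither had separated groups (SD, n = 3 each). Antisense genes also overlap the exons of Pcdhga1, Pcdhga7, Pcdhga8, Pcdhga11, Pcdhga12 and Pcdhgb7. Besides Pcdhga4 and Pcdhgc5, the own part of Pcdhgb8 missed the threshold, with a log2 difference of -0.49 (adjusted p = 0.364, limma), and that of Pcdhgc4 was too low to be tested.

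The long noncoding gene 3222401L13Rik ends just before Pcdhga1 and shares no exon with it. It had 258.8, 279.97 and 296.25 normalised reads in the libraries labelled KO, against 549.54, 560.35 and 652.37 in those labelled WT (log2 -1.07, SE 0.11, adjusted p = 3.19e-05, limma). The coding genes around the cluster did not follow it. Taf7, a subunit of the general transcription factor TFIID that lies upstream, had 790.14, 811.63 and 751.4 in KO, against 786.58, 643.14 and 611.37 in WT (log2 0.21, SE 0.10, adjusted p = 0.143, or 0.0361 after TMM scaling, limma). Diaph1, an actin-nucleating formin that lies downstream on the other strand, had 2769.4, 2652.21 and 2924.04 in KO, against 1420.71, 1452.74 and 1355.99 in WT, and rose by a log2 difference of 0.98 (SE 0.07, adjusted p = 3.28e-06, limma).

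In the Ugt1a cluster the shared level made up nearly the whole value of 8 of the 9 genes. The lowest member held 99.87% to 99.98% of the median member in all 6 libraries. The shared level was 1908.2, 1700.3 and 1986.1 in the libraries labelled KO, against 3012.1, 3059 and 3468.1 in those labelled WT, and no library labelled KO reached a library labelled WT. It averaged 1865 ± 148 in KO and 3180 ± 251 in WT (SD, n = 3 each), which is 1.71 times lower. The adjusted p-values of the 9 genes ran from 6.68e-05 to 9.81e-05 (limma), and they describe 1 change rather than 9.

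The first exons of Ugt1a genes other than Ugt1a7c had few reads. Leaving out Ugt1a7c, the own parts of the other 8 genes summed to 8.72, 12.76 and 9.35 normalised reads in the libraries labelled KO and to 9.13, 13.33 and 13.29 in those labelled WT. Per kilobase that is 0.64% to 1.07% of the density of the shared exons in KO and 0.43% to 0.61% in WT, where the same ratio for Pcdhg was 85.6% or more. The highest, Ugt1a8, had 8, 7 and 6 reads above the lowest member in the libraries labelled KO and 11, 9 and 8 in those labelled WT, and its own part did not pass the test (log2 -0.38, SE 0.41, adjusted p = 0.507, limma). Ugt1a1, the main bilirubin-conjugating enzyme of the family, had an own part of 0.46, 2.22 and 0.93 normalised reads in KO, against 1.02, 0.44 and 3.02 in WT. The own parts of the 7 genes other than Ugt1a8 averaged at most 2.24 in either group, near the 1.34 to 1.81 normalised reads that a count of 0 allows, so a difference in them was not detectable at this depth. A row's value in this cluster therefore does not say by itself that its enzyme was made.

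Ugt1a7c alone stood above the other 8, with 3354.79, 2791.37 and 3406.38 normalised reads in the libraries labelled KO, against 5106.44, 5294.66 and 5714.59 in those labelled WT (log2 -0.76, SE 0.09, adjusted p = 9.81e-05, limma). Its annotated transcript runs 1005 bases past the 3′ end common to the others. Its own part was 1446.5, 1091 and 1420.3 in KO, against 2094.3, 2235.6 and 2246.5 in WT. Placed on those 1005 bases, it came to 83.7% to 98.9% of the density of the shared exons in KO and 84.5% to 95.3% in WT. Placed instead on its first exon of 915 bases, it came to 91.9% to 109% in KO and 92.8% to 105% in WT. Either placement gives nearly the density of the shared exons, so the gene-level values do not tell whether the extra reads of Ugt1a7c lie in its first exon or past the common 3′ end. With the lowest member subtracted, Ugt1a7c was also the only one of 6 tested Ugt1a genes to pass, with a log2 difference of -0.74 (SE 0.11, adjusted p = 4.0e-04, limma).

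The noncoding gene Gm20528 lies on the other strand across the Ugt1a cluster, with 394 of its bases inside the shared exons. It had 645.4, 539.42 and 643.12 normalised reads in the libraries labelled KO, against 994.24, 992.97 and 1096.73 in those labelled WT (log2 -0.76, SE 0.10, adjusted p = 0.000174, limma). Without the strand setting its reads and those of Ugt1a cannot be told apart. The next gene downstream, Mroh2a, had 157.11, 189.6 and 151.87 in KO, against 209.18, 214.08 and 229.11 in WT (log2 -0.39, SE 0.13, adjusted p = 0.0418, limma), and its adjusted p was 0.172 after TMM scaling.

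The Pcdha cluster, between 36930285 and 37187657 on chromosome 18, had few counted reads. Its shared level was 1, 0 and 2 reads in the libraries labelled KO and 6, 14 and 10 reads in those labelled WT. Every member thus had at most 3 reads in every library labelled KO, and all 13 passed the filter on the mean only through the libraries labelled WT, so their 13 calls are not read as support. Pcdhac2, the highest, had 0.92, 1.11 and 0.94 normalised reads in KO, against 3.04, 7.12 and 10.85 in WT (log2 -1.88, SE 0.50, adjusted p = 0.0152, limma), and Pcdhac1 had 0.46, 0 and 0.94 in KO, against 3.04, 6.23 and 7.24 in WT. The call of Pcdhac2 was lost without WT B and without WT C (adjusted p = 0.0593 without WT C, limma), and that of Pcdha5 without KO A and without WT B. Fitted differences at this level depend on the constant added before taking logs: the Pcdha median of -2.06 with 1 became -0.87 with 5 and -3.68 with 0.1. The adjusted p-values of the other members were 0.0037 to 0.0164 (limma).

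Pcdhb members are counted on their own exons, and they did not share a level. Pcdhb22 had 229.03, 160.22 and 183.28 normalised reads in the libraries labelled KO, against 258.31, 199.40 and 229.11 in those labelled WT (log2 -0.27, SE 0.16, adjusted p = 0.221, limma). The groups overlapped, and the gene starts within the end of Pcdhb21, so reads there cannot be told apart. Per kilobase it came to 28.9 ± 5.30 in KO and 34.6 ± 4.46 in WT, beside 396 ± 54.5 in KO and 976 ± 95.8 in WT for the shared exons of Pcdhg (SD, n = 3 each). The other 21 Pcdhb genes together had 54, 49 and 65 reads in the libraries labelled KO and 106, 130 and 172 in those labelled WT, or 24.75, 27.19 and 30.45 against 53.65, 57.85 and 103.72 normalised reads. Pcdhb1 was at 0 in all 6 libraries.

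The 4 Pcdhb genes that passed were all low, and each lost its call under at least 5 of the alternatives tried. Pcdhb9 was at 0 in all 3 libraries labelled KO, against 4.05, 2.67 and 1.21 normalised reads in those labelled WT (adjusted p = 0.0233, limma). Pcdhb11 was also at 0 in all 3 libraries labelled KO, against 1.01, 1.78 and 12.06 in those labelled WT (adjusted p = 0.0417, limma). Both passed the filter only through the libraries labelled WT. Pcdhb18 had 4.58, 1.11 and 0.47 in KO, against 8.10, 10.68 and 4.82 in WT (adjusted p = 0.0370, limma), and Pcdhb5 had 0, 3.33 and 2.81 in KO, against 5.06, 8.01 and 9.65 in WT (adjusted p = 0.0473, limma). The count of 4 was 0 without WT B and 1 or 2 when any other library was left out.

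Ratios within a library were also compared, with an exact permutation test that cannot go below 0.1 for 3 libraries against 3. The log2 ratio of the shared level of Pcdhg to that of Ugt1a was -1.42, -0.85 and -1.22 in the libraries labelled KO and -0.61, -0.67 and -0.59 in those labelled WT, a difference of -0.54. The ratio of the shared level of Pcdhg to Pcdhb22 was 1.64, 2.56 and 2.22 in KO and 2.94, 3.27 and 3.33 in WT, a difference of -1.03. The ratio of 3222401L13Rik to the shared level of Pcdhg was -1.47, -1.75 and -1.53 in KO and -1.85, -1.78 and -1.82 in WT, a difference of 0.23. In each the groups did not overlap. The ratio of Pcdhg to Ugt1a had a two-sided exact permutation p of 0.1 over the 20 unpaired splits, the smallest this test can give. It was 0.12 after adjustment over the 6 quantities tested. The ratios with Pcdhb22 and 3222401L13Rik are given with no p. Pcdhb22 was taken for its level, and 3222401L13Rik was chosen after its values were seen. The other 3 quantities were the ratio of Pcdhgb4 to Pcdhgb2, the summed own parts over the shared level of Pcdhg and the sum of 21 Pcdhb genes. They are also given as values with no p, because they were picked by their values or run over members.

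Several protocadherins outside the clusters were lower as well. Of 12 nonclustered protocadherins, 8 passed the test, all lower, beside 23.4% of all genes lower, with a median log2 difference of -1.84. The median was -1.52 with Pcdh8 and Pcdh15, the 2 genes at 0 in KO, set to 3 reads. Pcdh8, Pcdh15 and Pcdh11x averaged 0, 0 and 0.99 in KO, against 2.81, 4.76 and 6.45 in WT. They passed the filter on the mean only through the libraries labelled WT, so their calls are not read as support. Pcdh18 had 6.87, 7.76 and 14.06 normalised reads in the libraries labelled KO, against 27.35, 26.70 and 65.72 in those labelled WT (log2 -1.89, SE 0.42, adjusted p = 0.0056, limma). Pcdh1 had 9.62, 8.32 and 10.78 in KO, against 26.84, 25.81 and 78.38 in WT, Pcdh10 averaged 8.21 in KO and 50.5 in WT, and Pcdh9 averaged 8.80 in KO and 62.4 in WT (adjusted p = 0.0059, 0.0063 and 0.0068, limma). WT C was the highest library in all 4. Without it 5 of the 12 passed, Pcdh15 among them, beside 17.6% of all genes lower.

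Most markers of neural, vascular and neutrophil cells were lower in the libraries labelled KO too. The counts of markers below stand beside 23.4% of all genes lower and 11.3% higher. Of 12 neuronal markers 11 were lower, with a summed level of 181 to 212 in the libraries labelled KO and 413 to 589 in those labelled WT. For astrocytes it was 9 of 10, with sums of 2992 to 3919 in KO and 6559 to 9831 in WT. Of oligodendrocyte markers 7 of 10 were lower (sums of 5567 to 6418 in KO and 8194 to 21942 in WT), and of oligodendrocyte precursor markers 4 of 8 (97.1 to 136 in KO and 237 to 939 in WT). Of endothelial markers 8 of 10 were lower (1103 to 1285 in KO and 2475 to 4562 in WT), and of pericyte and fibroblast markers 8 of 10 (830 to 1026 in KO and 1469 to 4268 in WT). Of 9 tested neutrophil markers 8 were lower, with sums of 54.5 to 117 in KO and 1891 to 16849 in WT. Ly6g and Mmp8 were at 0 in every library labelled KO and passed the filter on the mean only through the libraries labelled WT. Border-associated macrophage markers went the other way, with 4 higher and 1 lower of 10 and a median log2 difference of 1.10. Their sums were 22727 to 25350 in KO and 31588 to 32679 in WT, carried by Stab1, and 2141 to 3597 in KO and 1142 to 1819 in WT without it. Snap25, a presynaptic protein, averaged 12.7 in KO and 38.5 in WT, and no neuronal or astrocyte marker was at 0 in all 3 libraries labelled KO. WT C had the highest sum in the lists of neurons, astrocytes, oligodendrocytes, their precursors, endothelial cells, pericytes and fibroblasts, and neutrophils. Without WT C, 5 pericyte and fibroblast markers were lower in place of 8. Without that library, 22 Pcdhg genes were lower with a median log2 difference of -1.22, and 9 Ugt1a genes with -0.71, where 17.6% of all genes were lower. The part of these markers in the lower levels of the clusters was not tested, and in bulk RNA fewer cells of a type and less RNA per cell cannot be told apart.

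Factors known from neurons and cell lines to control the protocadherin promoters were also counted. Of 19 genes for CTCF, cohesin, its loaders and releasers, and silencing enzymes, 3 were lower and 1 was higher, beside 23.4% and 11.3% of all genes, with a median log2 difference of -0.04. Rad21, a cohesin subunit, had 3367.16, 2867.87 and 3181.38 normalised reads in the libraries labelled KO, against 4114.23, 4105.41 and 3919.66 in those labelled WT (log2 -0.37, SE 0.08, adjusted p = 0.0038, limma). Setdb1, a histone H3 lysine methyltransferase, and Smchd1, a chromatin protein that represses the clusters in mouse cells, were lower by log2 differences of -0.32 and -0.23, and Smc1a, another cohesin subunit, was higher by 0.23 (adjusted p = 0.0055, 0.0364 and 0.0184, limma). After TMM scaling Rad21, Setdb1 and Smchd1 no longer passed (adjusted p = 0.0650, 0.0642 and 0.426, limma). The list then had 0 lower and 2 higher, beside 15% and 15.4% of all genes. Ctcf itself averaged 2781 in KO and 3156 in WT and did not pass (adjusted p = 0.0672).

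Of 16 genes that cleave protocadherins or act below their tails, 8 were lower and 0 higher, beside 23.4% and 11.3% of all genes. Their median log2 difference was -0.28. After TMM scaling 5 were lower and 1 higher, beside 15% and 15.4% of all genes. The 4 with the smallest p were Cyfip1, Wasf2, Nckap1 and Rac1. Cyfip1, a subunit of the WAVE complex of actin assembly, had 18688.62, 18854.33 and 20783.72 normalised reads in the libraries labelled KO, against 33979.98, 35435.83 and 33517.59 in those labelled WT (log2 -0.82, SE 0.07, adjusted p = 1.6e-05, limma). Wasf2 had a log2 difference of -0.73, the GTPase Rac1 one of -0.50 and Nckap1 one of -1.78 (adjusted p = 1.2e-04, 3.9e-04 and 8.4e-04, limma), and all 4 also passed after TMM scaling. Nckap1 was at a far lower level than Cyfip1, Wasf2 and Rac1, with 37.1, 57.66 and 46.41 in KO, against 134.73, 120.62 and 261.07 in WT. WT C was its highest library, and it also passed without WT C (adjusted p = 0.0011, limma). Other subunits of that complex did otherwise: Abi1 had a log2 difference of 0.02 and Wasf1 one of -0.79 (adjusted p = 0.888 and 0.363, limma), and Brk1 was lower by -0.31 but did not pass after TMM scaling (adjusted p = 0.0124, and 0.158 after TMM scaling, limma).

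Around Ugt1a, 11 other glucuronosyltransferase genes of the Ugt2 and Ugt3 families were at 0 in every library labelled KO, and in every library labelled WT too. The enzymes that supply the sugar donor did not pass: Ugp2 averaged 1408 in KO and 1456 in WT, and Ugdh averaged 904 in KO and 810 in WT (adjusted p = 0.691 and 0.169, limma), although Ugdh passed after TMM scaling (adjusted p = 0.0278). Ugt8a, which makes the galactolipids of myelin and is also one of the oligodendrocyte markers, had 33.44, 38.25 and 33.75 in KO, against 113.96, 69.88 and 293.02 in WT (log2 -1.89, SE 0.41, adjusted p = 0.0052, limma). Of 14 xenobiotic receptors and targets, 12 were tested, of which 3 were higher and 1 lower, 4 in all beside 34.6% of all genes called in either direction. Nfe2l2, the oxidative stress regulator that induces Ugt1a genes in liver, had 14056.32, 26300.93 and 15514.55 in KO, against 7592.30, 9155.27 and 7552.33 in WT (log2 1.15, SE 0.19, adjusted p = 0.0011, limma). Tiparp, a target of the aryl hydrocarbon receptor, rose by 1.08 and the receptor gene Ahr, at low levels in both groups, by 2.05, while Cyp1b1 fell by 1.86 (adjusted p = 1.6e-04, 0.0095 and 0.0281, limma). Cyp1b1 no longer passed without WT C (adjusted p = 0.0917).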

How the data were processed

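The members and the gene lists were chosen with earlier results of these data known. The submitters' processing notes list DESeq2 1.26.0, HOMER 4.11.1, STAR 2.7.1a and Trimmomatic 0.39 without order or role, and the build mm10/GRCm38. How reads in several genes were treated, and the strand setting, are not given in the sources used here. The deposited signal is reads per gene, scaled by the authors to nearly the same total in each library. The authors' own log2 fold changes with raw and adjusted p-values are deposited beside it. All values above 0 (100%) were within 0.1 of a whole multiple of 1 step per library, so whole reads could be recovered, 56988261 to 77199936 per library. Columns headed Treatment were taken as KO and those headed Control as WT, by name alone. Exon lengths and junctions were computed from GENCODE M21, whose starts and ends match those of all 67 rows.

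Because the files hold normalised values, limma 3.58.1 (trend, R 4.3.3) was fitted to log2(value + 1) for 22472 genes with a mean above 1, 1 row per symbol, with Benjamini-Hochberg adjustment over all of them and a threshold of 0.05. Log2 differences of low genes come out too small on this scale, and a change given as times is the ratio of the 2 group means. The alternatives were other pseudocounts, filters, TMM factors, edgeR 4.0.16 and DESeq2 1.42.0 on the recovered reads, a replicate block, own parts, and each library left out. On the recovered reads edgeR called 6713 genes, 3353 lower and 3360 higher, where limma called 7781, 5252 lower and 2529 higher. Only the main limma fit was tried on simulated data, with 200 changed genes, and the alternatives were not. Column letters match no label number. Over 11588 genes with a mean above 100, deviations from the group means correlated between the groups at 0.61, 0.20 and 0.30 for A, B and C, all above 0.1. This was taken as a reason to try a block by column letter. Correlations between unlike letters were not computed, so the letters are not shown to be pairs. The main test and the permutation tests have no block, and the fit with the block is an alternative.

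Named with values are the highest and lowest member of each cluster, up to 8 called members by smallest p, the C-type members, Qk and Cx3cr1, and up to 4 genes of each list by smallest p, plus neighbours and completions of small counts, which were chosen after their values were seen. Among equal or nearly equal members only the range is given.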

Additional observations from a re-analysis of the deposited data

How the results depend on the processing

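The counts of 22 Pcdhg and 9 Ugt1a genes were the same under every pseudocount, filter, scaling and test tool tried, with the replicate block and with any 1 library left out. They changed only when the lowest member was subtracted, to 18 of 21 Pcdhg genes, which is within 1.5 times, and to 1 of 6 Ugt1a genes, since what is left of the others is a few reads. The log2 difference then turned positive, at 0.36 for Pcdhgc5 and 0.20 for Ugt1a6b, neither past the threshold. The count of 13 Pcdha genes was 0 with no filter on low values and 0 of 1 with the lowest member subtracted, and 11 to 13 with 1 library left out. A filter above 10 left no Pcdha gene to test. The count of 4 Pcdhb genes was 2 with a pseudocount of 0.1, 0 with no filter, 0 with a filter above 10, 2 with TMM factors, 2 with edgeR, 1 with DESeq2 and 0 to 2 with 1 library left out. The cause of these changes was not tested. TMM factors gave 2 called genes in place of 4 in the CTCF, cohesin and silencing list and 2 in place of 1 in the glucuronosyltransferase list.

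With the replicate block by column letter the counts were 13, 4, 22 and 9 for Pcdha, Pcdhb, Pcdhg and Ugt1a, and no call of the 61 tested members changed. Taking the second lowest member as the shared level gave means over all libraries of 1453.8 in place of 1451.6 for Pcdhg, 2522.3 for Ugt1a and 2.78 for Pcdha. Depth limits the Pcdha cluster, 21 Pcdhb genes and the Ugt1a first exons, where single reads decide the values. A count of 0 leaves room for 3 reads, which covers counting error only and takes reads as independent. Among counts of 1 to 10, 61.7% to 65.3% were even in each library, and whether reads were counted in pairs was not tested. If they were, the bound of 3 reads and the fits on recovered reads are too narrow at low counts.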
